A study of Mus musculus with 11 samples.

Results

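Matrix metalloproteinases (MMPs) are zinc-dependent enzymes that cut collagens, laminins and other proteins of the extracellular matrix, and TIMPs are the tissue inhibitors that bind and block them. Expression of 10 of these genes was followed in mouse microglia, the resident macrophages of the brain: the 7 proteases Mmp2, Mmp3, Mmp8, Mmp9, Mmp12, Mmp13 and Mmp14 and the 3 inhibitors Timp1, Timp2 and Timp3. The genes were chosen by name, and each was found through the RefSeq accession of its probe. They are 10 of the 23283 genes with a symbol and a probe on the array. All 10 were among the 19555 genes that remained after a filter on dim probes, although Mmp3 entered only through the cultured groups, where it was bright. Each gene rested on 1 probe except Timp1, which had 2, and 1 of these 2 probes also entered only through the cultured groups.

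The data came from 11 single-colour arrays in 4 groups. A_FACS (2 arrays) was sorted microglia of female adult C57BL/6N mice aged 12 to 24 weeks, and NB_FACS (3 arrays) was sorted microglia of C57BL/6N pups of both sexes at postnatal days 1 to 3. Both were sorted as CD45-intermediate, CX3CR1-high cells and lysed without culture. NB_Control (3 arrays) was microglia of newborn pups that grew in mixed glial flasks fed with 20% conditioned medium of L-929 cells, a fibroblast line. They were shaken off on days 18, 26 or 34 and held for 1 day in DMEM/F12 with 10% foetal bovine serum. NB_Stim (3 arrays) was handled in the same way with human TGF-β1, IL-34 and CX3CL1 added at 100 ng/mL each. Adults and newborns differed in sex composition as well as age, and cultured and sorted cells differed in the way they were isolated. In each case the factors cannot be told apart.

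MMPs are made as inactive precursors, and their activity depends on cleavage of the precursor, on cell-surface partners and on the supply of TIMPs. In the brain they are known from remodelling of the basement membrane around vessels, from leukocyte entry and from the injury response, and microglia are among their sources. RNA levels, which are all that was measured here, say nothing about cleavage or inhibition. In bulk RNA, a change in the number of cells of a type and a change in RNA per cell cannot be told apart.

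Values are quantile normalised log2 signal intensities, in which 1 unit is a doubling of the signal, and they compare arrays for 1 gene but not genes with each other. Tests used limma's moderated statistic, two-sided, and p-values were adjusted by Benjamini-Hochberg over all 19555 genes. Calls were made below an adjusted p of 0.05. The share of probes well above background was 66.8% to 80.4%, depending on the array. Slide 1 held 8 arrays, and slide 2 held replicate 3 of each newborn group. Summed signal of 7 microglia markers, among them Cx3cr1 and P2ry12, was 262000 to 286000 in A_FACS, 160000 to 185000 in NB_FACS, 38500 to 65800 in NB_Control and 137000 to 148000 in NB_Stim. The study defines its sample numbers as independent biological replicates, but the labels do not say whether the arrays came from separate litters or cultures. The p-values therefore measure the spread between these arrays.

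**Figure D1:**
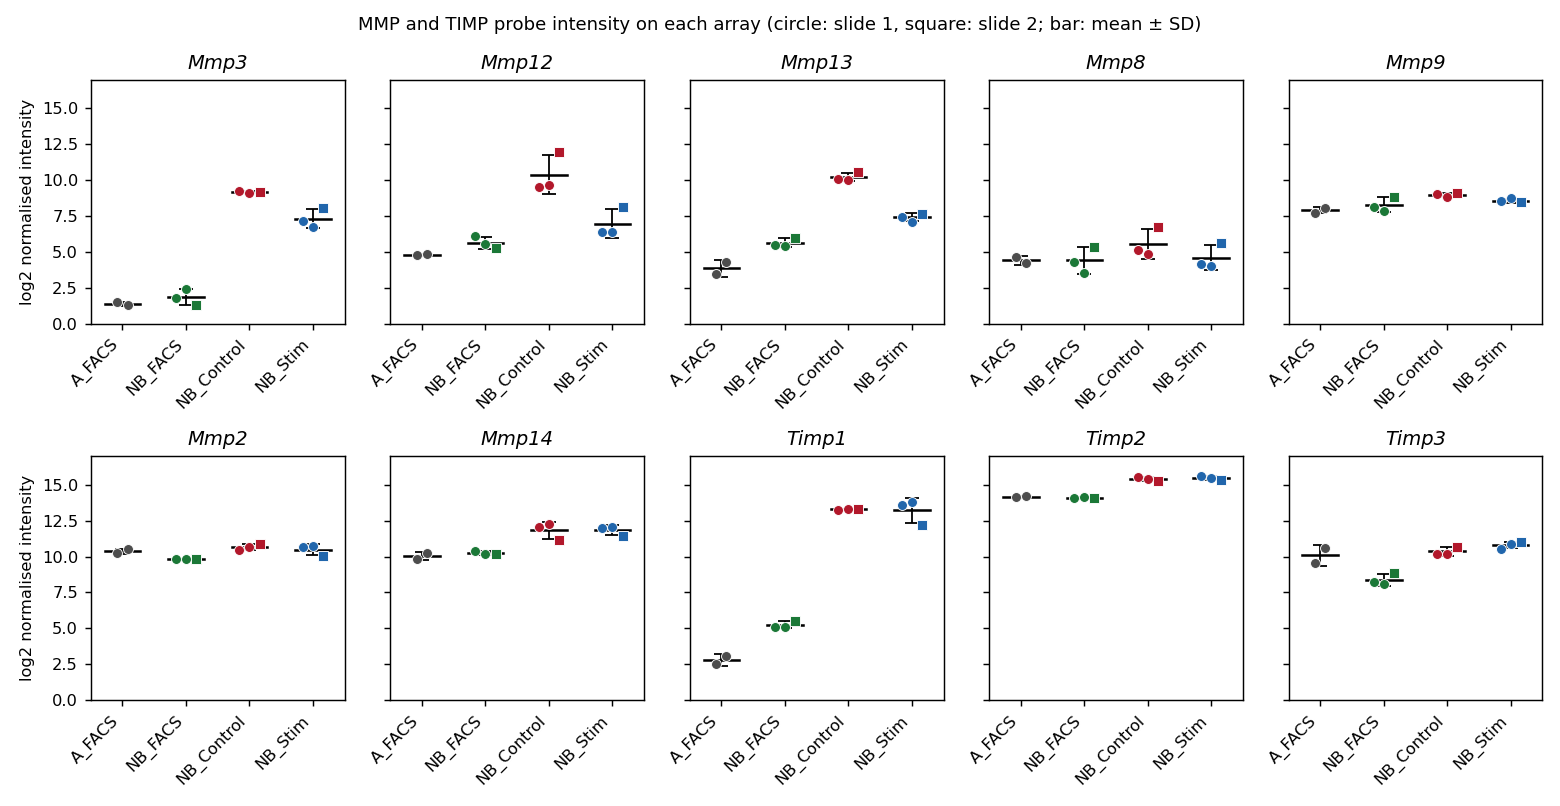
Log2 normalised intensity (vertical axis) of the 10 genes on each of the 11 arrays by group (horizontal axis), with circles for slide 1, squares for slide 2 and bars for the mean ± SD. Mmp3, Mmp12, Mmp13 and Timp1 sit higher on every cultured array than on any sorted array, and Mmp3, Mmp12 and Mmp13 sit lower in NB_Stim than in NB_Control.

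The first comparison asked how cultured newborn microglia differ from those taken straight from the newborn brain. Of the 10 genes 8 were higher in NB_Control than in NB_FACS and 0 were lower, against a background of 29.7% of all genes called, with 15.8% higher and 13.9% lower. Mmp3 could pass the filter only where it was bright, so its call against sorted cells is no support, and without it 7 of 9 were higher, with a median of 1.58 log2 units. All 10 differences were above 0, the smallest being 0.68 for Mmp9, and the median over all 10 was 1.78 log2 units, compared with 0.09 over all genes tested. Apart from Mmp3, the rise was steepest for Timp1, followed by Mmp12 and Mmp13, while Timp3, Mmp14, Timp2 and Mmp2 rose by 0.87 to 1.98 log2 units. With the 3 cytokines Mmp12, Mmp13 and Mmp3 were lower than in NB_Control and 0 of the 10 genes were higher, where 3.41% of all genes were called, 1.4% higher and 2% lower. The other 7 genes lay between -0.96 and 0.45 and were not called, and 0 of the 10 were higher at an unadjusted p under 0.05 either. An F test over the 4 groups called 9 of the 10 genes, all but Mmp8, or 8 of 9 without Mmp3, where 48.8% of all genes were called.

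**Figure D2:**
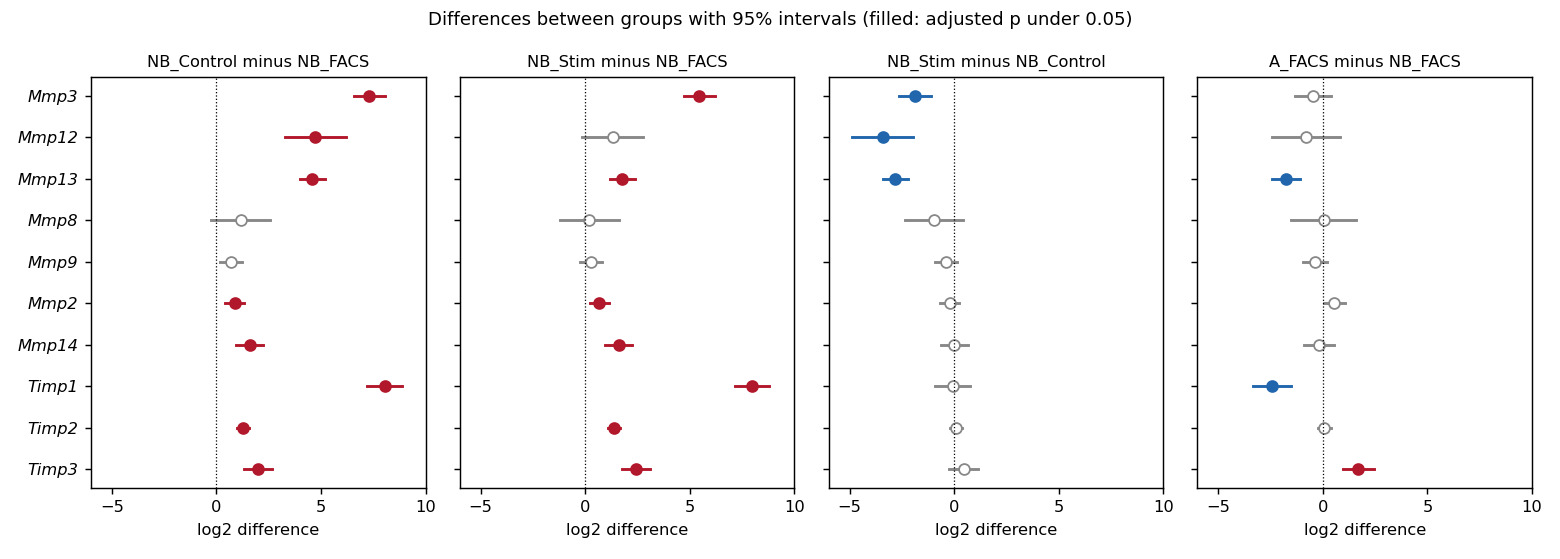
Log2 difference (horizontal axis) of each gene (vertical axis) in 4 comparisons, with the first-named group minus the second and lines for 95% intervals; filled points have an adjusted p under 0.05, red for higher and blue for lower. Timp1 stands at 8.04 in NB_Control minus NB_FACS, and in NB_Stim minus NB_Control the 3 blue points are Mmp3, Mmp12 and Mmp13.

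Mmp13 is the main interstitial collagenase of rodents, an enzyme that opens the triple helix of fibrillar collagen. Its level was 5.48, 5.43 and 6.0 on the NB_FACS arrays, 10.09, 10.02 and 10.55 on the NB_Control arrays and 7.45, 7.11 and 7.66 on the NB_Stim arrays. In A_FACS it was 3.45 and 4.29, and only the second of these arrays was well above background. The 4 groups did not overlap. Mmp13 was therefore ordered NB_Control, NB_Stim, NB_FACS and A_FACS from high to low. NB_Control exceeded NB_FACS by 4.58 log2 units (SE 0.27, adjusted p 2.57e-06), a 24-fold higher signal. With cytokines it fell by 2.81 log2 units (SE 0.27, adjusted p 0.000505), which left it 1.77 above NB_FACS (adjusted p 0.00075). With normexp background correction, which adds an offset of 50 and compresses dim signals, NB_Control was 3.57 above NB_FACS (adjusted p 3.61e-07) and NB_Stim 1.09 (adjusted p 0.000742). The fall with cytokines was -2.78 within slide 1 and -2.89 within slide 2.

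Mmp12, the macrophage elastase, cuts elastin and is a known product of activated macrophages. It was 6.11, 5.54 and 5.30 in NB_FACS and 9.53, 9.64 and 11.93 in NB_Control. The levels were 6.38, 6.39 and 8.12 in NB_Stim and 4.80 and 4.84 in A_FACS. Replicate 3, on slide 2, was the highest array of both cultured groups and the lowest of NB_FACS. NB_Control exceeded NB_FACS by 4.72 (SE 0.65, adjusted p 0.000454), a difference of 3.76 within slide 1 and 6.64 within slide 2, and of 3.64 with normexp (adjusted p 0.000645). With cytokines Mmp12 fell by 3.41 (SE 0.65, adjusted p 0.0207), by -3.20 on slide 1 and -3.82 on slide 2. The cytokine call was lost when only NB_Control and NB_Stim were fitted (adjusted p 0.0977) and without NB_Stim replicate 1 (adjusted p 0.0927) or replicate 2 (adjusted p 0.094). NB_Stim lay above NB_FACS on every array, but the difference of 1.31 (95% interval -0.14 to 2.77, adjusted p 0.161) was not called.

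Mmp3, or stromelysin-1, degrades proteoglycans, laminin and fibronectin and can activate other MMP precursors. It was not well above background on any of the 5 sorted arrays, where it read 1.83, 2.41 and 1.33 in NB_FACS and 1.49 and 1.28 in A_FACS. It was well above background on all 6 cultured arrays, at 9.25, 9.08 and 9.19 in NB_Control and 7.12, 6.76 and 8.06 in NB_Stim. Against the lowest signal well above background, Mmp3 was at least 49.0-fold higher in NB_Control than in NB_FACS, and for NB_Stim the bound was at least 13.5-fold. These bounds are given as a description, without a test, since the gene passed the filter only through the cultured groups. Mmp3 was not well above background in either group of sorted cells, so no order between them is given. With cytokines Mmp3 fell by 1.86 (SE 0.34, adjusted p 0.0171), a fall of -2.22 on slide 1 and -1.12 on slide 2. This call was lost without NB_Control replicate 1 (adjusted p 0.0726) or 2 (0.0606) and without NB_Stim replicate 1 (0.0805) or 2 (0.0763).

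These 3 genes lie close together, in an array of 10 MMP genes on chromosome 9 whose order in the reference assembly is Mmp13, Mmp12, Mmp1b, Mmp3, Mmp1a, Mmp10, Mmp8, Mmp27, Mmp20 and Mmp7. RefSeq promoter windows (GRCm38.p6, 250 bases before to 50 after the annotated start) were at hand for 8 of the 10 members, all but Mmp2 and Mmp9, with 9 windows in all because Mmp12 has 2 starts. The windows were searched on both strands for the letters of the AP-1 site, TGAGTCA, and of the TATA box, TATAAA. Both were chosen after the expression values were known, and a match was counted at any position in the window. AP-1, a dimer of Fos and Jun proteins, is known as a regulator of collagenase and stromelysin genes. The AP-1 letters stood in 3 of the 9 windows, those of Mmp3, Mmp13 and the second start of Mmp12, and in 5.2% of all 32851 windows. TATAAA stood in the same 3 windows and in that of Mmp8, and in 13.6% of all windows. The 120 bases before the start are shown for the 3 genes that carry the AP-1 letters, with AP-1 and TATA matches in capitals, all on the plus strand of chr9. In Mmp13 the AP-1 match is on the minus strand and reads TGACTCA, and in Mmp12 the TATA letters lie after the start, beyond the stretch shown.
Mmp13, chr9:7272394-7272513: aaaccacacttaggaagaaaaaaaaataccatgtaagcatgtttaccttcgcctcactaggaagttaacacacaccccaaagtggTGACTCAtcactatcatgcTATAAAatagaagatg
Mmp12, chr9:7347254-7347373: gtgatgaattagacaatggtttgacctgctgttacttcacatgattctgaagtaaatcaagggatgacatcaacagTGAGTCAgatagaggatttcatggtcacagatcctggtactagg
Mmp3, chr9:7445702-7445821: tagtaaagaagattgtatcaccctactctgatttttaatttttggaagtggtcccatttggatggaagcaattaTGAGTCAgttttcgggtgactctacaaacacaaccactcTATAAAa
The AP-1 match began 35 bases before the start in Mmp13, 44 in Mmp12 and 46 in Mmp3. Counted in the same way, the TATAAA match began at 16 in Mmp13, at 7 in Mmp3 and at -4, after the start, in Mmp12. In Mmp8 it began at 3, on the minus strand. Whether these letters serve as a TATA box was not tested. A match describes the letters in the window and shows neither binding nor use of a site.

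Mmp8, the neutrophil collagenase, lies in the same gene cluster and was well above background on 9 of the 11 arrays. It read 4.31, 3.55 and 5.37 in NB_FACS, 5.11, 4.83 and 6.76 in NB_Control, 4.19, 4.01 and 5.62 in NB_Stim and 4.66 and 4.22 in A_FACS. Replicate 3 was the highest array of each newborn group. Neighbours in the order NB_Control, NB_Stim, A_FACS and NB_FACS overlapped, whereas both A_FACS arrays lay below all NB_Control arrays. NB_Control exceeded NB_FACS by 1.16 (SE 0.62, adjusted p 0.204), which was not called, and by 0.40 with normexp (adjusted p 0.253). With the replicate number as a block, the difference of 1.16 had an SE of 0.14 and an adjusted p of 0.000521, and with the slide as a block the adjusted p was 0.00242. The block also called the fall of Mmp8 with cytokines, -0.96 (adjusted p 0.00927 against 0.56 without it). It called A_FACS above NB_FACS as well, by 0.55 (adjusted p 0.0365), where the value without it was 0.03 (adjusted p 0.983). The 53-base Mmp8 probe holds a run of 18 A, shown in capitals in this stretch of it, bases 13 to 42.
Mmp8 probe: tgccagAAAAAAAAAAAAAAAAAAcattga
Only 6 of the 60037 probes hold a run of 1 base at least as long, and the part of this run in the Mmp8 signal was not tested.

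The gelatinases Mmp2 and Mmp9 digest denatured collagen and the type IV collagen of basement membranes. Mmp9 was 8.14, 7.87 and 8.85 in NB_FACS, 9.0, 8.82 and 9.09 in NB_Control, 8.53, 8.74 and 8.45 in NB_Stim and 7.75 and 8.06 in A_FACS. NB_Control exceeded NB_FACS by 0.68 (SE 0.23, adjusted p 0.0523). The difference became a call in 5 of 22 alternative settings. It did so with normexp (0.58, adjusted p 0.03) and with probes above background on all arrays (adjusted p 0.0427). The slide block (adjusted p 0.0306) and the replicate block (adjusted p 0.0453) called it too, as did the fit without NB_FACS replicate 3 (0.96, adjusted p 0.00285). Without that array NB_Stim was called above NB_FACS as well (0.57, adjusted p 0.0308, against 0.29 and 0.39 with it). With cytokines every NB_Stim array lay below every NB_Control array, but the difference of -0.40 (95% interval -0.92 to 0.13) was not called.

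NB_FACS replicate 3 carried the highest Mmp8 and Mmp9 signal of its group. Its summed signal of 7 neutrophil markers was 5883, compared with 581 and 545 on the other arrays of NB_FACS and 655 to 2211 on the arrays of the other groups. S100a8 made up 61.3% of the sum on NB_FACS replicate 3. Of these 7 markers limma called 0 in each of the 4 comparisons, and 0 passed at an unadjusted p under 0.05. S100a9, an abundant neutrophil gene outside the 7, was well above background on 2 of the 3 NB_FACS arrays, 1 of the 2 A_FACS arrays and 0 cultured arrays. The part of these cells in the Mmp8 and Mmp9 signal was not tested.

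Mmp2 was 9.80, 9.86 and 9.80 in NB_FACS and 10.48, 10.67 and 10.91 in NB_Control. It read 10.67, 10.75 and 10.03 in NB_Stim and 10.24 and 10.50 in A_FACS. NB_FACS was the lowest group and overlapped with no other group, whereas the remaining 3 groups overlapped along the order NB_Control, NB_Stim and A_FACS. Mmp2 was higher by 0.87 in NB_Control (SE 0.20, adjusted p 0.00866) and by 0.67 in NB_Stim (SE 0.20, adjusted p 0.0302) than in NB_FACS. The call in NB_Stim was lost in 9 of 22 alternative settings, among them without any 1 of the NB_FACS arrays (adjusted p 0.0596 to 0.0791) and without NB_Stim replicate 1 (0.108) or 2 (0.113). The adult value exceeded NB_FACS by 0.55 (95% interval 0.05 to 1.06), which did not pass after adjustment (adjusted p 0.111).

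Mmp14, a membrane-anchored MMP, activates the precursor of Mmp2 on the cell surface with Timp2 as a bridge. It was 10.41, 10.17 and 10.15 in NB_FACS, 12.08, 12.24 and 11.16 in NB_Control and 12.02, 12.08 and 11.43 in NB_Stim. Every cultured array lay above every sorted array, those of A_FACS at 9.85 and 10.22 included. The difference from NB_FACS was 1.58 in NB_Control (SE 0.29, adjusted p 0.00227) and 1.6 in NB_Stim (SE 0.29, adjusted p 0.00212). Between NB_Stim and NB_Control it was 0.01 (95% interval -0.63 to 0.66), which was not called. The interval is not adjusted for the number of genes tested, so it does not give the smallest change that could have been called.

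Among the inhibitors, Timp1 is one that many cells raise on injury and inflammation. Its level was 5.09, 5.11 and 5.54 in NB_FACS, 13.23, 13.30 and 13.32 in NB_Control, 13.62, 13.83 and 12.21 in NB_Stim and 2.51 and 3.10 in A_FACS. No cultured array overlapped with a sorted one, and both cultured groups overlapped with each other. NB_Control exceeded NB_FACS by 8.04 (SE 0.37, adjusted p 9.39e-07), a 264-fold higher signal, and NB_Stim exceeded it by 7.98 (adjusted p 1.07e-06). With normexp these differences were 6.45 (adjusted p 4.93e-07) and 6.44 (adjusted p 5.3e-07). Addition of cytokines gave a difference of -0.07 (95% interval -0.90 to 0.76), composed of 0.45 within slide 1 and -1.11 within slide 2.

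Both Timp1 probes showed this pattern. Probe MMXS52707 averaged 6.73 ± 0.34 in NB_FACS, 14.82 ± 0.07 in NB_Control and 14.63 ± 0.70 in NB_Stim (SD, n = 3 each). Probe MMXS34000 averaged 3.76 ± 0.21, 11.76 ± 0.07 and 11.81 ± 1.05 in the same groups and was well above background on 1 of the 3 NB_FACS arrays. In A_FACS probe MMXS52707 was well above background on 1 of 2 arrays and probe MMXS34000 on 0. MMXS34000 passed the filter only through the cultured groups, whereas MMXS52707 passed through NB_FACS as well. The Timp1 tests against sorted cells rest on the mean of both probes, so the part of MMXS34000 in them is no support. The 49 bases of MMXS34000 are given because its reading near background in sorted cells enters the Timp1 mean.
Timp1 probe MMXS34000: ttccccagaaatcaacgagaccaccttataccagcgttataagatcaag

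**Figure D3:**
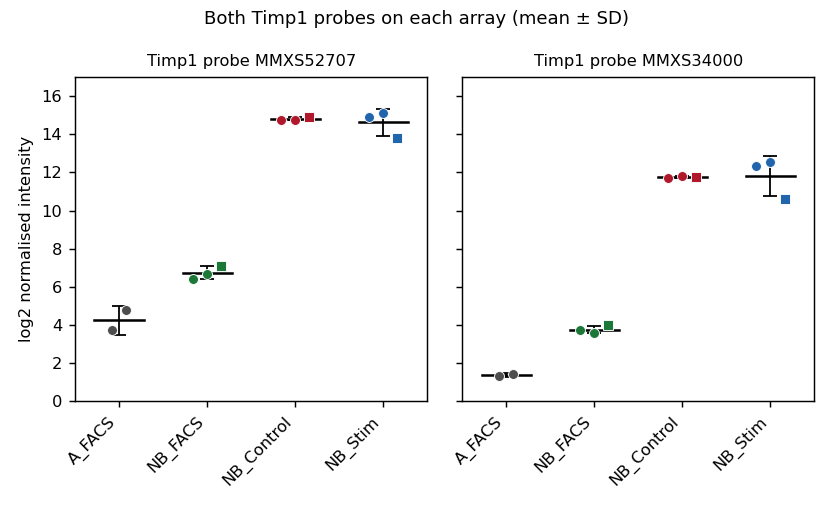
Log2 normalised intensity (vertical axis) of each Timp1 probe on each array by group (horizontal axis), with circles for slide 1, squares for slide 2 and bars for the mean ± SD. Both probes rise from sorted to cultured cells, from 6.73 to 14.82 for MMXS52707 and from 3.76 to 11.76 for MMXS34000 between NB_FACS and NB_Control.

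Timp2, which serves both as an MMP inhibitor and as the adaptor for activation of Mmp2, was well above background on all arrays. It was 14.08, 14.14 and 14.11 in NB_FACS, 15.53, 15.40 and 15.25 in NB_Control, 15.62, 15.49 and 15.33 in NB_Stim and 14.15 and 14.20 in A_FACS. The spread within groups was small, and the cultured arrays all lay above the sorted ones. Timp2 exceeded NB_FACS by 1.28 in NB_Control (SE 0.13, adjusted p 6.46e-05) and by 1.37 in NB_Stim (SE 0.13, adjusted p 4.51e-05). The cytokine difference was 0.09 (95% interval -0.20 to 0.37).

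Timp3 binds to the matrix and also inhibits several ADAM proteases. It was 8.19, 8.09 and 8.85 in NB_FACS, 10.20, 10.18 and 10.69 in NB_Control, 10.55, 10.85 and 11.02 in NB_Stim and 9.55 and 10.60 in A_FACS. NB_FACS was below all other arrays, and the other 3 groups overlapped in the order NB_Stim, NB_Control and A_FACS. The difference from NB_FACS was 1.98 in NB_Control (SE 0.30, adjusted p 0.000798) and 2.43 in NB_Stim (SE 0.30, adjusted p 0.000235). NB_Stim exceeded NB_Control by 0.45 (95% interval -0.22 to 1.12), which was not called.

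Set against the sorted newborn cells, NB_Stim was higher for 7 of the 10 genes and lower for 0, where 31.1% of all genes were called, 16% higher and 15.1% lower. Without Mmp3 it was 6 of 9. The 7 were Timp1, Mmp3, Timp3, Mmp13, Mmp14, Timp2 and Mmp2. All 10 differences were again above 0, the smallest being 0.20 for Mmp8. The groups did not overlap for 8 of the 10 genes in NB_Control against NB_FACS, where 44.2% of all genes tested did not overlap. In NB_Stim against NB_Control it was 4 of 10, where 24% of all genes did not overlap, and in NB_Stim against NB_FACS 8 of 10, where 43.5% did not. NB_Control serves in the first 2 of these comparisons and NB_FACS in the first and the last, so their values are not independent of each other.

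The comparison of adult with newborn sorted microglia called 3 of the 10 genes, against 22.7% of all genes. Timp3 was higher in adults by 1.70 (SE 0.34, adjusted p 0.0059), and Timp1 (-2.44, SE 0.41, adjusted p 0.00267) and Mmp13 (-1.77, SE 0.30, adjusted p 0.00248) were lower. Over all genes 9.75% were higher and 12.9% lower in adults. The groups did not overlap for 6 of the 10 genes, these 3 together with Mmp2, Mmp12 and Timp2, which is near the 51.2% of all genes tested. Timp1 and Mmp13 were at the edge of detection in adults. With another background correction (normexp) Timp1 was no longer called (-0.67, adjusted p 0.226) and Mmp13 differed by -0.62 (adjusted p 0.04). Timp3 was 1.18 without the second adult array and 2.22 without the first. Mmp12 (-0.83), Mmp9 (-0.38), Mmp14 (-0.20) and Timp2 (0.06) were not called.

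Of 18 further genes of the family, listed as the other MMPs, Timp4 and the membrane-anchored MMP inhibitor Reck, 16 had a probe and 13 passed the filter. Mmp1a was well above background on 0 arrays. Mmp1b and Mmp7 passed only through the cultured groups, so their part in the values against NB_FACS is no support. In NB_Control 4 of the 13 were higher than in NB_FACS and 0 lower, with a median difference of 0.51. They were Mmp27 (at least 3.18-fold, adjusted p 0.00486), Mmp23 (1.68, adjusted p 5.67e-05), Mmp10 (1.43, adjusted p 0.0152) and Mmp11. Mmp10, stromelysin-2, is the closest relative of Mmp3. With cytokines 1 of the 13 was lower, Mmp19, by -1.20 (adjusted p 0.0051), and 0 were higher. In NB_Stim against NB_FACS 2 were higher, Mmp23 (1.48) and Mmp10 (1.17), and Mmp19 was lower (-1.01).

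Mmp19 is another secreted MMP. Its mean level was 12 in NB_FACS, 12.19 in NB_Control, 10.99 in NB_Stim and 8.48 in A_FACS, so that its lowest group was the adult one (-3.52 against NB_FACS, adjusted p 7.24e-06). In adults Reck was higher by 2.48 (adjusted p 0.000457), as were Mmp23 (2.02, adjusted p 9.58e-05) and Mmp28.

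Plasmin is a known activator of MMP precursors, and 8 of 11 genes of plasminogen activation and its inhibitors were tested. In NB_Control 3 were higher and 3 lower than in NB_FACS, with a median difference of 0.12. Serpinb2, which encodes an inhibitor of the plasminogen activators, was at least 109-fold higher. It was well above background on 0 sorted arrays and passed the filter only through the cultured groups. Serpinf2, the plasmin inhibitor, was lower by -3.29 and passed the filter only through the sorted groups. The values of both genes against NB_FACS are therefore a description, and their calls are no support. Serping1, the inhibitor of complement C1, was the 1 gene of this list called with cytokines, at -1.87 (adjusted p 0.0287). In NB_Stim 3 genes were higher and 3 lower than in NB_FACS, with Serpinb2 at least 129-fold higher and Serpinf2 at -3.28. In adults 1 gene of the list was higher than in NB_FACS and 0 were lower, and at an unadjusted p under 0.05 limma gave 2 higher and 0 lower.

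**Figure D4:**
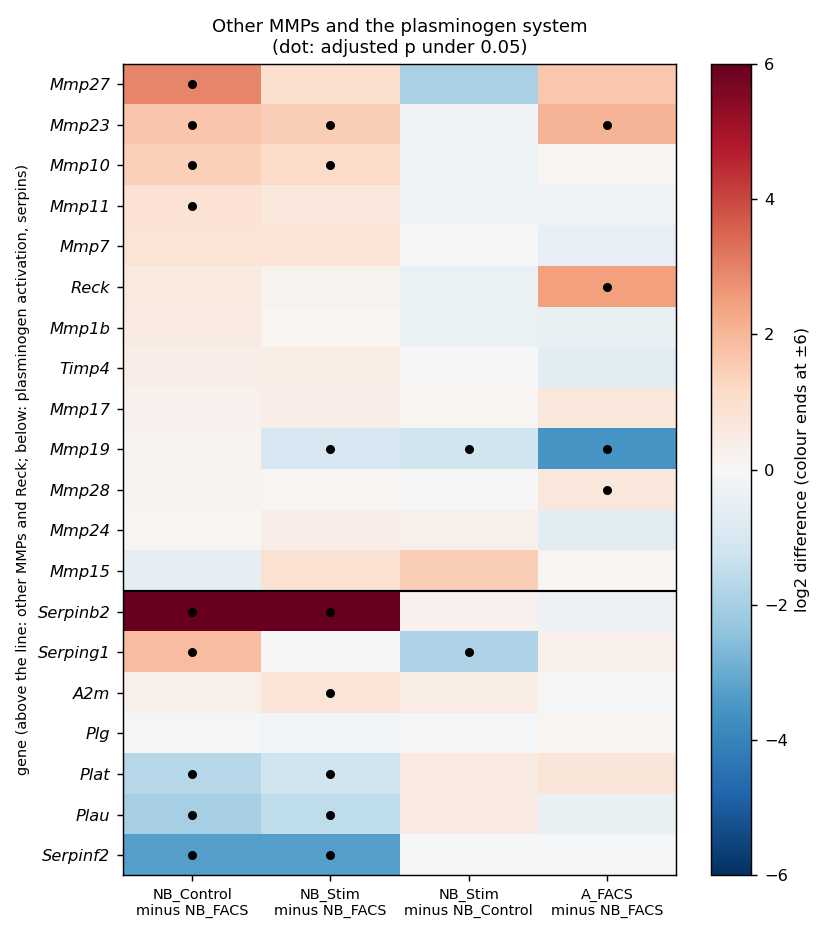
Log2 difference (colour, ending at ±6) of the other MMPs, Timp4 and Reck (above the line) and of plasminogen system genes (below it) in 4 comparisons (columns), with dots for an adjusted p under 0.05. Serpinb2 is red in both cultured groups, and Mmp19 is blue with cytokines and in adults.

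ADAM and ADAMTS enzymes are relatives of the MMPs that shed surface proteins or cut proteoglycans, and several are inhibited by Timp3. Of 11 tested, 5 were higher and 2 lower in NB_Control than in NB_FACS, with a median difference of 0.82. Over all genes 15.8% were higher and 13.9% lower in this comparison. Adamts5 passed the filter only through the cultured groups, so any call of it against NB_FACS in these counts is no support. Adam8, an ADAM of leukocytes, was higher by 4.93 (adjusted p 1.09e-07) and Adam33 by 2.37, whereas Adamts1 was lower by -2.65 (adjusted p 0.000824). With cytokines Adam10 was higher by 0.71 (adjusted p 0.00856) and Adam8 lower by -0.65 (adjusted p 0.0319). NB_Stim held 4 higher against NB_FACS, among them Adam8 (4.28) and Adam33 (2.38), and 1 lower, Adamts1 (-3.66). In adults Adamts1 was higher by 2.04, and Adam9 (-1.66) and Adam8 (-1.46) were lower.

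Of 11 tested activators, binding partners and clearance genes, 3 were higher in NB_Control: Thbs2 by 3.34, Lcn2, whose product binds Mmp9, by 2.87 and Itgav by 1.13. Thbs2 was well above background on 1 of the 3 NB_FACS arrays and passed the filter only through the cultured groups. Its calls against NB_FACS are therefore no support. In NB_Stim 4 of the 11 were higher than in NB_FACS, led by Lcn2 (3.31), Thbs2 (1.87) and Itgav (1.27). Ctss, a lysosomal cysteine protease, was the 1 call with cytokines (0.60, adjusted p 0.045) and the 1 call in adults (0.81, adjusted p 0.00446). In this list 0 genes were called lower in any of the 4 comparisons, and 2 were lower at an unadjusted p under 0.05 in adults and 2 with cytokines.

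Genes of the substrates were tested as well. Of 15 tested collagens, laminins, proteoglycans and other matrix genes, 11 were higher in NB_Control and 10 in NB_Stim than in NB_FACS, and 9 were lower in adults. Their median difference in NB_Control was 1.71. Col1a1 was higher in NB_Control by 5.23 (adjusted p 2.3e-05), Col3a1 by 4.0 and Col1a2 by 3.62. In NB_Stim the same 3 genes were higher by 4.54, 2.88 and 3.44. With cytokines Bcan was higher by 0.62 and Col3a1 lower by -1.12 (adjusted p 0.03). In adults Col3a1 was at least 9.32-fold lower, and Nid1 (-3.56) and Col1a1 (-3.22) were lower too.

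Col1a1, Col1a2 and Col3a1 are also fibroblast markers. Of 11 tested fibroblast markers, 7 were higher in NB_Control and 9 in NB_Stim than in NB_FACS, and 5 were lower in adults. Lum passed the filter only through the cultured groups, so its call in NB_Stim is no support. Thy1 (5.94) and Fbln2 (4.44) were higher in NB_Control beside Col1a1, and in NB_Stim they stood at 5.33 and 4.66. With cytokines 1 was lower, Col3a1, and 0 were higher, also at an unadjusted p under 0.05. The 11 were well above background on all cultured arrays, and Postn, the remaining listed marker, was so on 0 newborn arrays. Their summed signal was 15500 to 20000 in NB_Control, 8840 to 19000 in NB_Stim, 1000 to 1210 in NB_FACS and 202 to 647 in A_FACS. NB_Stim replicate 3 had the lowest sum of the cultured arrays. Timp1, Mmp2 and Mmp9 were also lowest on it among those arrays, and Mmp14 and Timp2 were lowest on it within NB_Stim. In contrast, Timp3 was highest on it among the cultured arrays, and Mmp3, Mmp8, Mmp12 and Mmp13 were highest on it within NB_Stim. Summed signal of 6 smooth muscle and pericyte markers was 30800 to 36700 in NB_Control, 18700 to 39900 in NB_Stim, 1680 to 2120 in NB_FACS and 6350 to 8990 in A_FACS. Tagln made up 57.8% to 61.4% of this sum on the cultured arrays. Myh11 averaged 3.53 in NB_FACS and 3.81 in NB_Control, and Des averaged 4.37 in both. In NB_Control 3 of the 6 were higher, among them Tagln (6.66) and Acta2 (3.38). Rgs5, a pericyte gene, was lower and well above background on 1 of the 3 NB_Control arrays. It passed the filter only through the sorted groups, so its call is no support. The part of such cells in the higher MMP and TIMP signal of the cultures was not tested.

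Markers of border macrophages, the macrophages of the meninges and perivascular spaces, moved too. Their summed signal was 45700 to 89600 in NB_Control, 20500 to 34100 in NB_Stim, 12500 to 15100 in NB_FACS and 1270 to 1670 in A_FACS. In NB_Control 3 of the 8 were higher and 3 lower than in NB_FACS, with Ms4a7 (6.66) and Pf4 (4.71) higher and Lyve1 at least 20.7-fold lower. Lyve1 and Cd163 passed the filter only through the sorted groups. Their values against NB_FACS are therefore a description, and their calls are no support. With cytokines 1 was called lower, Mrc1 (-5.24), and at an unadjusted p under 0.05 limma gave 5 lower and 0 higher, with a median difference of -1.61. Pf4 made up 58.2% to 78.3% of the sum on the cultured arrays except NB_Control replicate 3, where Ms4a7 led with 38%. NB_Control replicate 3 had the lowest sum of its group and the highest Mmp12. The part of these cells in the Mmp12 and Mmp13 values was not tested.

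**Figure D5:**
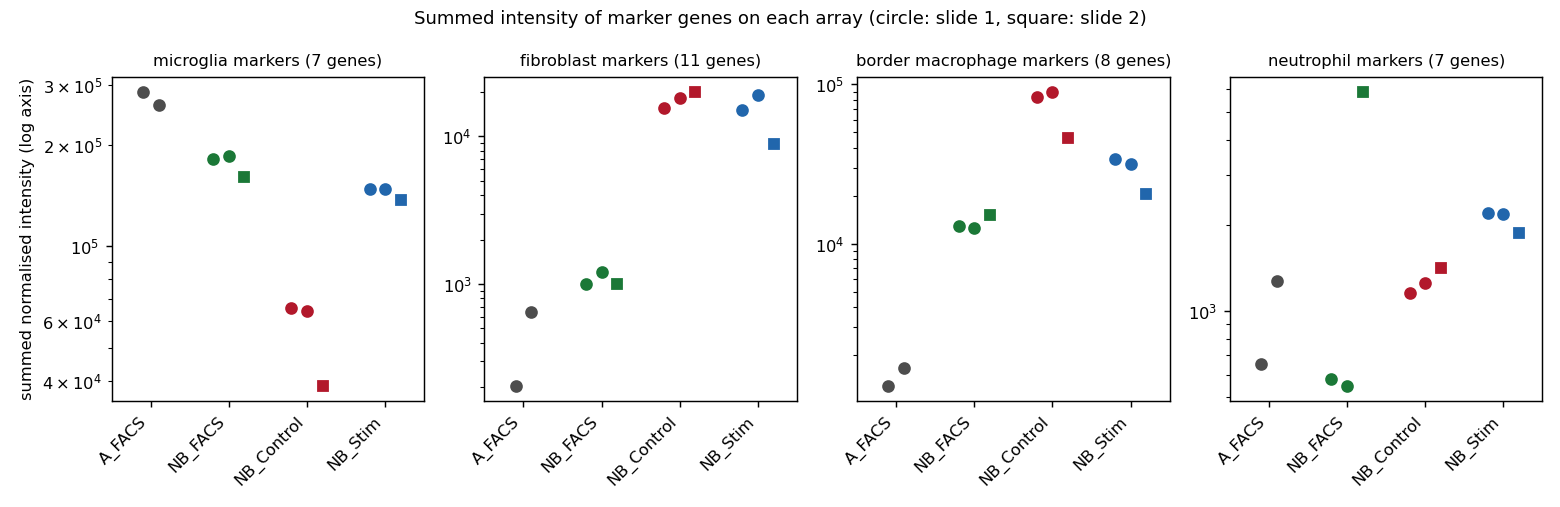
Summed normalised intensity (vertical axis, log scale) of marker genes of 4 cell types on each array by group (horizontal axis), with circles for slide 1 and squares for slide 2. Fibroblast markers are higher on all cultured arrays than on any sorted array, microglia markers are lowest in NB_Control, and NB_FACS replicate 3 stands at 5883 for neutrophil markers.

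Timp1, Timp3 and Timp4 lie within introns of the synapsin genes Syn1, Syn3 and Syn2, whose products coat synaptic vesicles. Against NB_FACS, Syn1 differed by 0.41 in NB_Control (adjusted p 0.132) and Syn3 by -0.05 (adjusted p 0.902), and neither was called, while Timp1 and Timp3 were. With cytokines 0 of the 3 synapsin genes were called by limma, also at an unadjusted p under 0.05. In adults Syn1 was lower by -0.83 (adjusted p 0.0169).

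The genes whose profile over the 11 arrays was most like that of a member were found by Pearson correlation, given as a description, since the arrays fall into 4 groups and share slides. Nearest to Mmp13 were Antxr2 (r = 0.996), Lilr4b and Tbrg1, and nearest to Mmp12 were Anpep (r = 0.986), Gm5150 and Cd36. Septin8 (r = 0.993), Cyp1b1 and Slc41a2 were nearest to Mmp3. Timp1 had Col5a2 (r = 0.998), a fibrillar collagen gene, as its nearest, ahead of S100a6 and Cdkn2a. Mmp14 was nearest to Aldh1a2 (r = 0.993), Slc30a7 and Tmem134, and Timp2 to Aldoart2 (r = 0.995), Ankrd1 and Slc25a1. The remaining members had looser neighbours. These were Myl9 (r = 0.957), Comtd1 and Hic1 for Mmp2, Cebpg (r = 0.959), Vegfc and Lysmd1 for Timp3, Gm20153 (r = 0.960), H2aj and Airn for Mmp8, and Olfr1350 (r = 0.981), BC025920 and Gm35039 for Mmp9.

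Between members, the profiles of Mmp12 and Mmp13 had r = 0.936 and those of Timp1 and Timp2 had r = 0.970 over the 11 arrays. Mmp14 went with Timp2 (r = 0.959) more than with Mmp12 (r = 0.606), and Mmp8 was least like Mmp14 (r = 0.125).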

How the data were processed

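The authors hybridised Cy3-labelled RNA to single-colour Agilent arrays and deposited scanner output of Feature Extraction 11.5.1.1, with a background-subtracted signal intensity per spot, not normalised between arrays, and an intensity table with the same values. Log2 values were computed here and quantile normalised. Control and flagged spots were left out. Of 60037 probes, 44727 passed the filter on dim probes, for which all arrays of any 1 group had to be well above background. Among the listed genes, Serpinb2, Thbs2, Adamts5, Lum, Mmp1b, Mmp7 and Nefl passed only through cultured groups. Serpinf2, Rgs5, Lyve1, Cd163, Tek and Folr1 passed only through sorted groups. Their calls between cultured and sorted cells are no support. Probes were paired with symbols through RefSeq accessions (36264 matched), and probes of a gene were averaged. Each gene was fitted in limma 3.58.1 (R 4.3.3) over all 11 arrays with 1 mean per group, and the lowest signal well above background gave bounds. Figures were drawn with matplotlib 3.10.9.

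The members, lists and tests were chosen with earlier results of these data known. Named list genes are the 3 called genes with the largest differences in each list and comparison (all calls named for lists with fewer), plus the synapsin genes and the 3 nearest profiles. Mmp11, Mmp28, Mmp1a, S100a8, Slc2a1, Tubb3 and the markers given below as not called were added after their values were seen. Genes named only for the way they passed the filter were added then too. Values of a few list genes are not reported here. Astrocyte, endothelial, monocyte, oligodendrocyte, neuron and choroid plexus markers were summed too. Same-numbered newborn arrays deviated together (r 0.112 to 0.489 in 9 pairs), so the replicate numbers were taken as pairing them, and the replicate block was run. Differently numbered newborn arrays of slide 1 correlated to a similar extent (r 0.185 to 0.364), so shared number and shared slide cannot be told apart. Alternatives were another scaling, background correction, filter, probe rule, block, set of arrays and test. The number of arrays limits the precision.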

Additional observations from a re-analysis of the deposited data

How the results depend on the processing

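The 10 genes were refitted under 22 alternative settings per comparison, 11 of which left out 1 array each, and the counts include Mmp3. The 8 genes called in NB_Control against NB_FACS ranged from 6 (all 6 tested, with probes well above background on all arrays) to 10 (slide or replicate block), and the F test from 6 to 10. In NB_Stim against NB_Control the count of 3 became 1 with probes above background on all arrays (6 genes tested, Mmp3, Mmp8, Mmp13 and Timp1 being dropped), 1 with cultured replicates 1 and 2 averaged and 1 by Tukey's test, and leaving out single arrays gave 1 to 3. In NB_Stim against NB_FACS the count of 7 became 4 of 6 tested with that filter and was 6 to 8 without single arrays. In A_FACS against NB_FACS the count of 3 became 1 with that filter and 1 by Tukey's test, and was 3 to 4 without single arrays. Leaving out single arrays gave 8 to 9 in NB_Control against NB_FACS and 7 to 9 in the F test. Mmp13 kept its call and direction in all 4 comparisons under the 21 settings in which it was tested. The replicate block called Mmp8 in 3 comparisons and Mmp9 in 1, as given above, and changed no other call.

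Signs turned only in differences that were not called. In NB_Stim against NB_Control, Mmp14 became -0.25 with 75th percentile scaling, and without single arrays it ranged from -0.32 (without NB_Control replicate 3) to 0.22. Without NB_Stim replicate 1 it was -0.07 and without replicate 2 -0.10. Without NB_Stim replicate 3 Mmp2 became 0.024 and Timp1 0.44, at the top of ranges that began at -0.34 and -0.37. In A_FACS against NB_FACS, Timp2 became -0.24 with 75th percentile scaling, and Mmp8 became -0.032 with normexp. Without single arrays it ranged from -0.40 (without NB_FACS replicate 2) to 0.50, with -0.19 without A_FACS replicate 1 and -0.021 without NB_FACS replicate 1. In NB_Stim against NB_FACS, Mmp8 ranged from -0.31 (without NB_Stim replicate 3) to 0.68, with -0.23 without NB_FACS replicate 2. The causes were not tested. By Tukey's test the calls of Mmp12 (adjusted p 0.297) and Mmp3 (0.233) with cytokines and of Timp3 (0.0806) and Timp1 (0.051) in adults were lost, as was that of Mmp2 in NB_Control (0.074). Without NB_Control replicate 3, Mmp12 was called in NB_Stim against NB_FACS (adjusted p 0.0488), and Mmp2 was called in adults with normexp (0.0489) and without NB_Stim replicate 3 (0.0312). Signal near background limits Mmp3, Mmp8, Mmp13 and Timp1 in sorted cells.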

Other observations

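Markers of other brain and blood cell types were summed over the same arrays. Astrocyte markers (8 genes) summed to 854 to 1300 in A_FACS, 2410 to 2650 in NB_FACS, 3600 to 3730 in NB_Control and 3090 to 4190 in NB_Stim. Endothelial markers (7 genes) summed to 15900 to 24800, 10100 to 14900, 5380 to 6300 and 8170 to 8870 in the same groups. Slc2a1 made up 48.7% to 82.5% of the sum on all arrays but 1. Of the 7, 4 were called lower in NB_Control than in NB_FACS and 0 higher. Tek, 1 of the 4, passed the filter only through the sorted groups, so its call is no support. Markers of the oligodendrocyte lineage (4 genes) summed to 8160 to 12300 in NB_Stim, 1220 to 1720 in NB_Control and 472 to 844 on the sorted arrays. Cspg4, which pericytes express too, made up 66.7% to 92.8% of the sum in NB_Stim and was the 1 marker of the 4 called with cytokines (13.10 against 9.54, adjusted p 0.0026). Mbp differed by -0.03, and neither Olig1 nor Olig2 was called. Choroid plexus markers (4 genes) ranged from 16300 to 124000 on the sorted arrays and from 818 to 5610 on the cultured ones. On the sorted arrays 97% to 99.5% of the sum was Ttr, which was lower in NB_Control by -4.91 and in NB_Stim by -4.16 than in NB_FACS. Kcnj13 (0.12 and 0.43) and Prlr (0.26 and 0.52) were not called in these comparisons. Monocyte markers (3 genes) summed to 280 to 531 on the newborn arrays, a range that holds opposite moves of single genes. In NB_Control against NB_FACS Ly6c2 differed by -2.47, Plac8 by 1.75 and Vcan by 0.78, and all 3 were called. With cytokines Plac8 was lower, at -3.12 (adjusted p 0.00384), and Ly6c2 (0.75) and Vcan (0.19) were not called. The sum was 1540 and 3360 in A_FACS, where Ly6c2 made up 95.6% and 97.2%. Against NB_FACS, Ly6c2 was higher in adults by 3.32 (adjusted p 0.000748), Vcan was lower by -1.30 (adjusted p 0.00493) and Plac8, at -0.79, was not called. Neuron markers (6 genes) lay between 1640 and 5600 on all arrays, with 76.8% to 96.6% of the sum from Tubb3.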
